A study of Mus musculus with 4 samples.

Results

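The ligands of the epidermal growth factor (EGF) receptor, the receptor itself and a pair of its inhibitors were followed through calcium treatment of mouse keratinocytes with and without Pla2g2f. The set held 10 of the 30341 genes or targets on the array. These were the 7 ligands Areg, Ereg, Epgn, Hbegf, Tgfa, Btc and Egf, the receptor Egfr, and the inhibitors Errfi1 and Lrig1. They were taken as every non-control probe that the scanner files name for one of these genes, which gave 13 probes on 40 spots per array. Keratinocytes, the epithelial cells of the epidermis, came from newborn C57BL/6 mice labelled Pla2g2f+/+ or Pla2g2f-/-, and were freed from the whole skin with 0.05% collagenase A and grown for 3 days. The cells of each genotype were then kept for 48 h without added calcium or with 1 mM CaCl2, the usual signal that turns cultured keratinocytes from growth to differentiation. Pla2g2f encodes a secreted phospholipase A2, and the series asks how differentiation and activation of keratinocytes differ without it. RNA from the cells of 6 mice per genotype was pooled and each of the 4 groups was measured on 1 array, so genotype, mice and cell preparation cannot be told apart. No difference below could be checked against replicates, so none carries a p-value, and having 4 arrays in all limits the precision.

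EGF receptor ligands are made as membrane proteins and are released by cutting of their outer part, often by the protease ADAM17. Binding pairs receptors, switches on their kinase and drives the Ras-MAPK cascade, which in keratinocytes promotes growth and migration and holds back parts of terminal differentiation. Keratinocytes make several of these ligands themselves and respond to their own output. Errfi1 (also called Mig6) encodes a protein that binds the receptor kinase and blocks it. Lrig1 encodes a membrane protein that promotes loss of the receptor and marks a population of epidermal stem cells.

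Each level below is the log2 signal of a probe relative to the 75th percentile of its array, and values are given in the order +/+ without calcium, +/+ with calcium, -/- without calcium and -/- with calcium. Levels of different probes are not comparable with each other, so only arrays are compared. The error of a difference is the scanner software's own error for the spots on both arrays, and it covers no variation between cultures. It is averaged over repeat spots, not reduced by their number, and is near 0.14 log2 per array for bright probes. It is therefore not the spread of repeat spots. Those 75th percentiles ran from 2638 to 3299 intensity units, and 67.0% to 68.6% of 39426 probes were well above background. The probe of Pla2g2f read 259, 333, 211 and 286 intensity units and was well above background on all 4 arrays. The labels do not say which part of the gene was deleted, so this probe does not check them, and +/+ and -/- below stand for the labels. The median gene differed by -0.07 log2 with calcium in +/+ cells and by -0.03 log2 in -/- cells. Between genotypes it was lower in -/- cells, by -0.18 log2 without and -0.16 log2 with calcium, and genotype differences of the members are also given relative to it. Each array enters a calcium comparison and a genotype comparison, so these are not independent of each other.

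Probes of 4 of the ligands lie side by side on chromosome 5, with no probe of another gene between them. In mm9, the build of the array files, Epgn is at chr5:91464119-91464178, Ereg at chr5:91522553-91522612 and Areg at chr5:91570090-91570149, all on the plus strand, and Btc is at chr5:91786948-91787007 on the minus strand. Gene models of that build were not used here, so the exon or UTR under a probe is not given. The other members lie elsewhere, Tgfa and Lrig1 on chromosome 6, Egf on chromosome 3, Errfi1 on chromosome 4 and Egfr on chromosome 11.

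The stretch of 250 bases before the transcription start is shown for Areg, Epgn and Btc, to let these neighbours be compared, for Tgfa, a ligand gene outside the cluster, and for Errfi1, a target gene and inhibitor of the same receptor. RefSeq promoters (build GRCm38.p6) were matched by symbol for 8 of the 10 members, with 10 entries. Capitals mark matches on either strand to TATAAA, known as the TATA box. They also mark TGACGTCA, the CRE or cAMP response element, on either strand. The same holds for GGGCGG, known as the GC box, and the sequences run 5′ to 3′ in the direction of the gene. TGANTCA (AP-1) was also searched and had no match in any of the 10 entries.
Areg, chr5:91139349-91139598, plus strand: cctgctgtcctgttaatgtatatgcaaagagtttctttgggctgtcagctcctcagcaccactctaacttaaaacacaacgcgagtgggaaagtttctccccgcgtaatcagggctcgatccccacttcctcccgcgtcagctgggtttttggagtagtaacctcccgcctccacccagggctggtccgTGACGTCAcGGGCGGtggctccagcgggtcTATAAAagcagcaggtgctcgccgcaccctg
Epgn, chr5:91027267-91027516, plus strand: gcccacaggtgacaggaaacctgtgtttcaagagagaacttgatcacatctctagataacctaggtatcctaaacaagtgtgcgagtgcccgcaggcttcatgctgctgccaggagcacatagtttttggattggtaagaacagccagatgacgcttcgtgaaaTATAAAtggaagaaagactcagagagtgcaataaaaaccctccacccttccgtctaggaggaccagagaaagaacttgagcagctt
Btc, chr5:91402995-91403244, minus strand: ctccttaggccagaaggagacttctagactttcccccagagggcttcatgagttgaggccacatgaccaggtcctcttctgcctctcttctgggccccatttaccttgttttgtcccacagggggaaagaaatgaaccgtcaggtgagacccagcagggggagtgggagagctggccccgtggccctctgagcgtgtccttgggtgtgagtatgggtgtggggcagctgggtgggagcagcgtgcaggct
Tgfa, chr6:86194972-86195221, plus strand: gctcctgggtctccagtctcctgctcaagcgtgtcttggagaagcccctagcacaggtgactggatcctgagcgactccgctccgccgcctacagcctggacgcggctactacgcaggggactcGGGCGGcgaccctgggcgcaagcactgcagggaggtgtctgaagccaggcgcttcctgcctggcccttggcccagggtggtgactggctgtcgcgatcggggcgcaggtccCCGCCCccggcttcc
Errfi1, chr4:150854820-150855069, plus strand: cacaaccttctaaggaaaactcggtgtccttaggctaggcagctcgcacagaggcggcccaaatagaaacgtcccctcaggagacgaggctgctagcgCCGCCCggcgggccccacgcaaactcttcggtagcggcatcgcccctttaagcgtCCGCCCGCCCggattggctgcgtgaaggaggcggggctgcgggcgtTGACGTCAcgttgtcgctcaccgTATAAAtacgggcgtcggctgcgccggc

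The windows of the neighbouring ligands differ in these letters. Areg holds TGACGTCA starting 61 bases before the start, GGGCGG at 52 bases and TATAAA at 31 bases. Epgn holds TATAAA, 86 bases before the start, and Btc holds none of the motifs. Tgfa holds GGGCGG at 126 and 15 bases and no TATAAA. Errfi1 has 2 entries, of which the one shown holds TGACGTCA at 51 bases, TATAAA at 28 bases and GGGCGG at 152, 97 and 93 bases, the last pair overlapping, while the other holds none. Among 32851 promoters of the same length, TATAAA was found in 12.4%, TGACGTCA in 1.55%, GGGCGG in 32.7% and TGANTCA in 6.75%. A match describes letters in a window and was not set against any measurement of binding.

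With calcium, the ligands stood higher in both genotypes, with Egf as the exception in +/+ cells and within its scanner error in -/- cells. In +/+ cells 6 of 7 ligands were above 0, with a median of 0.72 log2, and in -/- cells 7 of 7, with a median of 1.27 log2, while 38.3% and 45.1% of all genes were above 0. In bulk RNA, fewer cells of a type and less RNA per cell cannot be told apart. Over all 10 members, 1 was at least 2-fold higher with calcium in +/+ cells (Ereg), where 2.52% of 21140 genes were. Btc was not counted there, but its value of 1.99-fold is a lower bound, so its place relative to 2-fold is not known. In -/- cells 4 of 10 were at least 2-fold higher (Areg, Ereg, Tgfa and Btc), where 3.01% of 21433 genes were. No member was 2-fold lower in either genotype, against 1.01% and 0.607% of genes. The 6 ligands other than Egf kept a value above 0 with calcium in both genotypes under each of the 9 other ways of processing that gave a value. The exception is Btc in +/+ cells, which has none where only genes well above background on both arrays are kept.

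**Figure D1:**
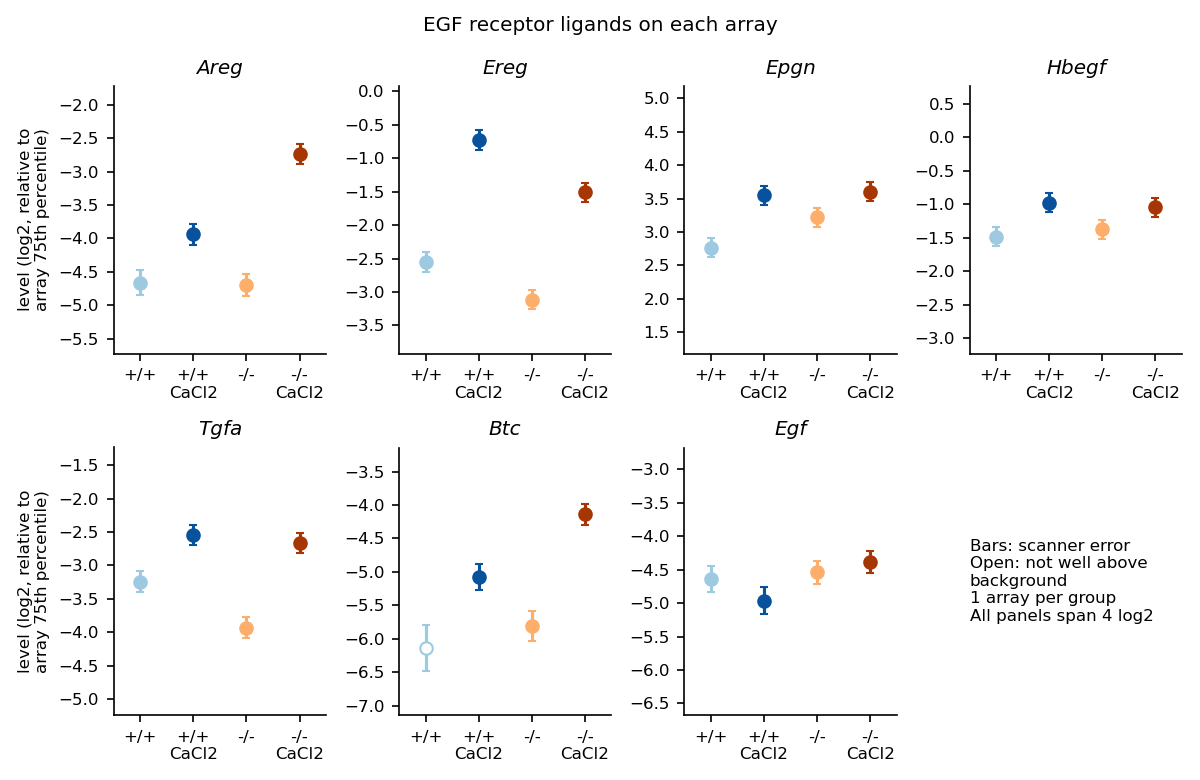
Level of each of the 7 ligands on each of the 4 arrays (log2 relative to the array's 75th percentile), with bars for the scanner error, 1 array per group and an open point where the probe was not well above background. Areg reaches -2.74 on the array of -/- cells with calcium and lies between -4.70 and -3.94 on the others, while Ereg is high on both calcium arrays.

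Ereg encodes epiregulin, a ligand of EGFR and ERBB4 that growing keratinocytes release. Its levels were -2.55, -0.73, -3.11 and -1.51 log2, the high values being those of both calcium arrays. The reading with calcium was higher by 1.82 ± 0.21 log2 (scanner error), or 3.53-fold, in +/+ cells, and 0.927% of genes were as high or higher. In -/- cells the difference was 1.60 ± 0.21 log2, or 3.04-fold, and 1.16% of genes reached it. The levels of -/- cells were below those of +/+ cells at both conditions, by -0.56 ± 0.21 log2 without and -0.78 ± 0.20 log2 with calcium. Relative to the median gene these were -0.39 and -0.63 log2, and scaled to basal keratinocyte genes they were -0.19 and -0.25 log2, with the sign kept. The calcium responses differed by -0.22 ± 0.29 log2, within the scanner error.

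Areg encodes amphiregulin, the main autocrine EGFR ligand of cultured keratinocytes. Its levels were -4.66, -3.94, -4.70 and -2.74 log2, so that a single array, that of -/- cells with calcium, stood above the other 3. The signals behind them were 104, 178, 111 and 493 intensity units, low on this array but well above background each time. This is the 60-base probe that was read, at the mm9 position given above on the plus strand, shown because the largest genotype difference among the members rests on its single spot per array.
Areg probe: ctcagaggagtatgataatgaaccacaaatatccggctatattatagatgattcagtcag

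With calcium the Areg reading was higher by 0.72 ± 0.24 log2 (1.65-fold) in +/+ cells and by 1.96 ± 0.22 log2 (3.89-fold) in -/- cells. Of all genes, 3.95% were as high in the first comparison and 0.700% in the second. The difference between these responses was 1.24 ± 0.33 log2, or 2.36-fold, and 0.848% of genes reached it. Areg was the 1 member of 9 compared whose responses differed by 2-fold, where 2.54% of 19224 genes did in either direction, and with quantile scaling its value was 0.97 log2 and no member reached 2-fold. Between genotypes Areg differed by -0.04 ± 0.25 log2 without calcium, within the scanner error and with the other sign under quantile scaling (0.16) and scaling to basal keratinocyte genes (0.34). With calcium it was higher in -/- cells by 1.20 ± 0.21 log2 (2.29-fold), or 1.35 log2 relative to the median gene. Under normexp background correction, which adds an offset and pulls in low signals, that genotype difference was 0.95 log2, just under 2-fold.

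Btc encodes betacellulin, a ligand of EGFR and ERBB4,, and was the ligand not well above background on every array. Its signals were 37.4, 81.1, 51.5 and 187 intensity units, and that of +/+ cells without calcium was not well above background. The lowest signal of a probe well above background on that array was 39.3 units, so differences from it are lower bounds. With calcium Btc was at least 1.99-fold higher in +/+ cells (at least 0.99 log2), against 1.67 ± 0.28 log2 (3.18-fold) in -/- cells. With normexp correction these values were 0.35 and 0.94 log2, both under 2-fold. Between genotypes Btc was higher in -/- cells by at least 0.26 log2 without calcium. That bound was 0 under normexp correction, where the measured difference was -0.07 log2. With calcium it was higher by 0.94 ± 0.25 log2 (1.91-fold), or by 0.52 log2 with normexp correction.

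Tgfa encodes transforming growth factor alpha, a classical autocrine growth factor of keratinocytes, and its probe was printed on 10 spots per array. Its mean levels were -3.24, -2.54, -3.93 and -2.66 log2, with an SD over the repeat spots of 0.05, 0.05, 0.06 and 0.03. Both calcium arrays were high, and -/- cells without calcium were lowest. Before scaling, the spot signals ran from 265 to 290 units without and 446 to 487 units with calcium in +/+ cells. In -/- cells they ran from 179 to 200 and from 504 to 541 units. These spots share 1 RNA sample and are not replicates of a group. The calcium differences were 0.70 ± 0.21 log2 (1.62-fold) and 1.27 ± 0.21 log2 (2.41-fold), and they differed from each other by 0.57 ± 0.30 log2. Under normexp correction the response of -/- cells was 1.00 log2 and fell just short of 2-fold. Without calcium Tgfa was lower in -/- cells by -0.69 ± 0.22 log2 (1.61-fold), or -0.51 log2 relative to the median gene. With calcium the genotype difference was -0.12 ± 0.21 log2, within the scanner error and positive (0.42) when scaled to basal keratinocyte genes.

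Epgn encodes epigen, a ligand with a slow and lasting action on EGFR. Its levels were 2.76, 3.55, 3.22 and 3.60 log2, with the array of +/+ cells without calcium lowest. The calcium difference was 0.78 ± 0.20 log2 (1.72-fold) in +/+ cells and 0.38 ± 0.20 log2 (1.31-fold) in -/- cells. Without calcium Epgn was higher in -/- cells by 0.45 ± 0.20 log2 (1.37-fold), or 0.63 log2 relative to the median gene. With calcium the genotype difference was 0.05 ± 0.20 log2. Among the 4 neighbouring ligands, then, Epgn was higher in -/- cells by more than its scanner error without calcium, Areg and Btc with calcium, and Ereg was lower at both conditions, while all 4 were higher with calcium.

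Hbegf encodes heparin-binding EGF-like growth factor, which is released in wounds. Its levels were -1.48, -0.98, -1.37 and -1.05 log2, with both calcium arrays above the others. The calcium differences were 0.51 ± 0.21 log2 (1.42-fold) and 0.33 ± 0.20 log2 (1.25-fold). The genotype differences were 0.11 ± 0.21 log2 without and -0.07 ± 0.20 log2 with calcium, both within the scanner error. Scaled to basal keratinocyte genes, they were 0.49 and 0.47 log2.

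Egf, which encodes the ligand that names the family, showed low signals of 107, 88.6, 124 and 159 intensity units on 9 or 10 repeat spots. The levels were -4.63, -4.96, -4.54 and -4.39 log2, with spot SDs of 0.12, 0.19, 0.11 and 0.19. Spots of the +/+ arrays overlapped, at 92.7 to 117 units without and 72.6 to 114 units with calcium. The calcium differences were -0.33 ± 0.28 log2 in +/+ and 0.16 ± 0.24 log2 in -/- cells, the second within the scanner error. The gap between them was 0.48 ± 0.37 log2. With calcium Egf was higher in -/- cells by 0.58 ± 0.27 log2 (1.49-fold), or 0.25 log2 with normexp correction. The genotype difference without calcium was 0.09 ± 0.26 log2, within the scanner error, and -0.05 log2 with normexp correction.

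**Figure D2:**
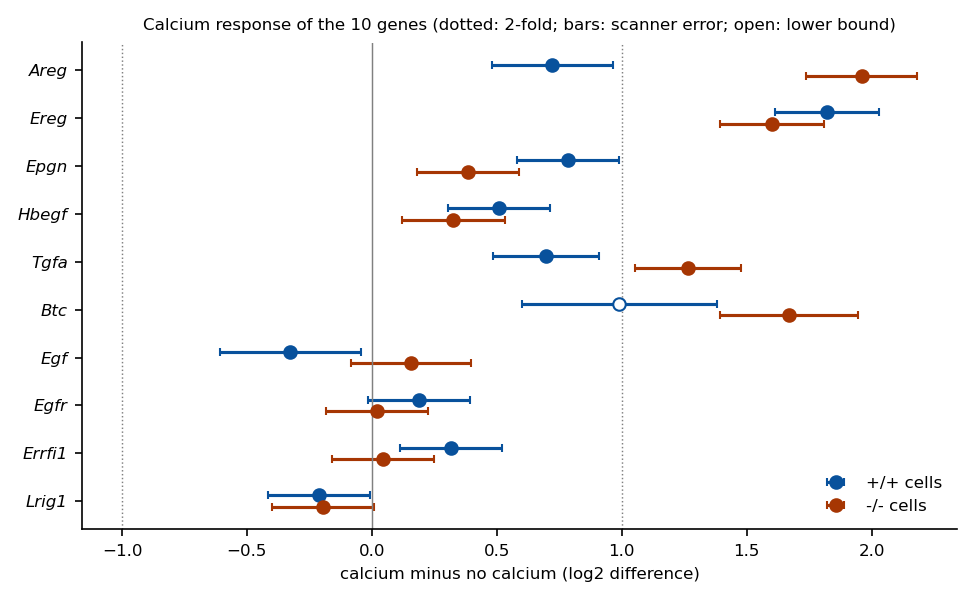
Calcium minus no calcium for each of the 10 genes (log2 difference, brightest probe), in +/+ cells (blue) and -/- cells (brown), with bars for the scanner error, dotted lines at 2-fold and an open point for a lower bound. Areg shows the widest gap between genotypes, 0.72 against 1.96 log2, while Ereg is past 2-fold in both; Lrig1 lies at -0.21 and -0.19 log2 and at 0.09 and 0.27 log2 when scaled to basal keratinocyte genes.

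The receptor was read by 3 probes, and each of them was lower in -/- than in +/+ cells at both conditions, except that the brightest was not when scaled to basal keratinocyte genes. That probe is annotated to transcript variant 1 (NM_207655), has 10 spots per array and lies at chr11:16813815-16813874. Its levels were 3.07, 3.26, 2.75 and 2.77 log2, with spot SDs of 0.02 to 0.03. Both +/+ arrays were above both -/- arrays. The genotype difference was -0.32 ± 0.20 log2 (1.25-fold lower) without and -0.49 ± 0.20 log2 (1.41-fold lower) with calcium, and 0.06 and 0.04 log2 when scaled to basal keratinocyte genes. Relative to the median gene the differences were -0.15 and -0.34 log2.

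The other Egfr probes are annotated to transcript variant 2 (NM_007912) and lie at chr11:16783556-16783615 and, further in the direction of the gene, at chr11:16787172-16787231. The upstream probe had levels of -0.79, -0.47, -1.47 and -1.26 log2, and both -/- arrays were below both +/+ arrays. Its genotype differences were -0.68 ± 0.20 log2 (1.60-fold lower) without and -0.79 ± 0.20 log2 (1.73-fold lower) with calcium. The downstream probe read -1.34, -0.66, -1.99 and -1.58 log2, with the same order of genotypes. It was lower in -/- cells by -0.64 ± 0.20 log2 (1.56-fold) and -0.92 ± 0.20 log2 (1.89-fold). Over 5 ways of scaling the arrays these probes kept the sign, between -0.68 and -0.26 log2 without calcium and between -0.95 and -0.25 log2 with it. The upstream probe is shown as an example of the 2 that kept their sign, and which transcripts it detects beyond its annotation was not tested.
Egfr upstream variant 2 probe: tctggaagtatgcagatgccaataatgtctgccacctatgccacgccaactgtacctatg

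The variant 1 probe of Egfr differed little with calcium, with values of 0.19 ± 0.20 log2 in +/+ and 0.02 ± 0.20 log2 in -/- cells. Both were within the scanner error, which was 0.14 log2 per array where the spot SDs were 0.02 to 0.03. The downstream variant 2 probe was higher with calcium by 0.68 ± 0.20 log2 (1.60-fold) and 0.41 ± 0.20 log2 (1.32-fold). The upstream one was higher by 0.33 ± 0.20 log2 and 0.22 ± 0.20 log2. No Egfr probe reached 2-fold in any of the 4 comparisons.

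Errfi1, whose transcription is itself driven by EGF receptor signalling, had levels of 3.80, 4.11, 3.47 and 3.52 log2, with both -/- arrays lower than both +/+ arrays. Between genotypes it differed by -0.33 ± 0.20 log2 (1.25-fold lower in -/- cells) without calcium, a value that was 0.05 log2 when scaled to basal keratinocyte genes. With calcium the difference was -0.60 ± 0.20 log2 (1.51-fold lower), or -0.44 log2 relative to the median gene, -0.38 log2 with quantile scaling and -0.06 log2 when scaled to basal keratinocyte genes. The calcium difference was 0.32 ± 0.20 log2 in +/+ cells and 0.05 ± 0.20 log2 in -/- cells.

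Lrig1 was read by 2 probes, at chr6:94554523-94554582 and chr6:94554811-94554870. The brighter had levels of 1.91, 1.70, 1.70 and 1.51 log2 and the other of 1.87, 1.53, 1.56 and 1.37 log2. On this scale both were highest in +/+ cells without calcium and lowest in -/- cells with calcium. The brighter probe differed by -0.21 ± 0.20 and -0.19 ± 0.20 log2 with calcium and by -0.21 ± 0.20 and -0.19 ± 0.20 log2 between genotypes, and each of these 4 values was above 0 when scaled to basal keratinocyte genes (0.09, 0.27, 0.17 and 0.35 log2). Relative to the median gene its genotype differences were -0.03 log2 at both conditions. The second probe differed with calcium by -0.33 ± 0.20 log2 in +/+ and -0.19 ± 0.20 log2 in -/- cells. Between genotypes it differed by -0.30 ± 0.20 log2 without and -0.16 ± 0.20 log2 with calcium. Scaled to basal keratinocyte genes, the first of these values kept its sign (-0.03 log2), and the others were 0.27, 0.07 and 0.38 log2.

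**Figure D3:**
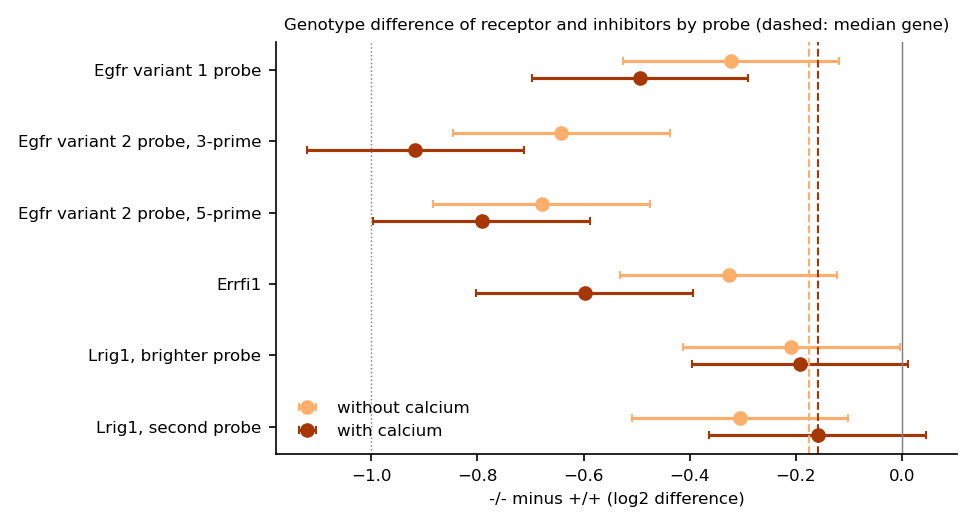
Difference between -/- and +/+ cells (log2) for the 3 Egfr probes, Errfi1 and the 2 Lrig1 probes, without calcium (light) and with calcium (dark), with bars for the scanner error and dashed lines at the median gene. All points lie below 0, between -0.92 and -0.16 log2; scaled to basal keratinocyte genes, the variant 2 Egfr probes keep that sign, while the variant 1 probe (0.06 and 0.04 log2), Errfi1 without calcium (0.05 log2) and both Lrig1 probes do not.

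Between genotypes the share of members at 2-fold was near that of all genes. Without calcium 0 of 10 members were 2-fold different, where 8.99% of 21359 genes were, and their median was -0.12 log2 against -0.18 log2 for all genes. With calcium 1 of 10 was 2-fold different (Areg, higher), where 9.61% of 21565 genes were in either direction and 6.54% were higher, and the median was -0.09 log2 against -0.16 log2. Of the 7 ligands, 4 were above 0 and 3 below it in each comparison, with ligand medians of 0.09 and 0.05 log2. Another scaling or background correction turned the sign of Areg and Egf without calcium and of Hbegf and Tgfa with it. Btc without calcium, a lower bound, was 0 with normexp correction, where its measured difference was -0.07 log2. The receptor and both inhibitors lay below 0 in both, at medians of -0.32 and -0.49 log2, although scaling to basal keratinocyte genes turned Egfr and Lrig1 in both and Errfi1 without calcium. Of all genes, 67.5% and 63.1% lay below 0 in these comparisons.

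The rest of the pathway was read through 6 lists of 64 genes, all of which were on the array and 62 of which were compared in each comparison. Erbb4 and Nrg3 were not compared, being not well above background. With calcium, 4 of 62 were at least 2-fold higher in +/+ cells and 3 of 62 in -/- cells, against 2.52% and 3.01% of all genes. None of the 62 was 2-fold lower, against 1.01% and 0.607% of all genes. Between genotypes 3 were 2-fold higher and 2 lower in -/- cells without calcium, and 3 higher and 3 lower with it. Of all genes 4.66% were 2-fold higher and 4.34% lower without calcium, and 6.54% and 3.07% with it. The medians of the 62 genes were -0.03 and 0.01 log2 for calcium and -0.07 and -0.06 log2 for genotype, and 0.28, 0.48, 0.31 and 0.47 log2 when scaled to basal keratinocyte genes. In the difference of the calcium responses 0 of 62 reached 2-fold, where 2.54% of all genes did.

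**Figure D4:**
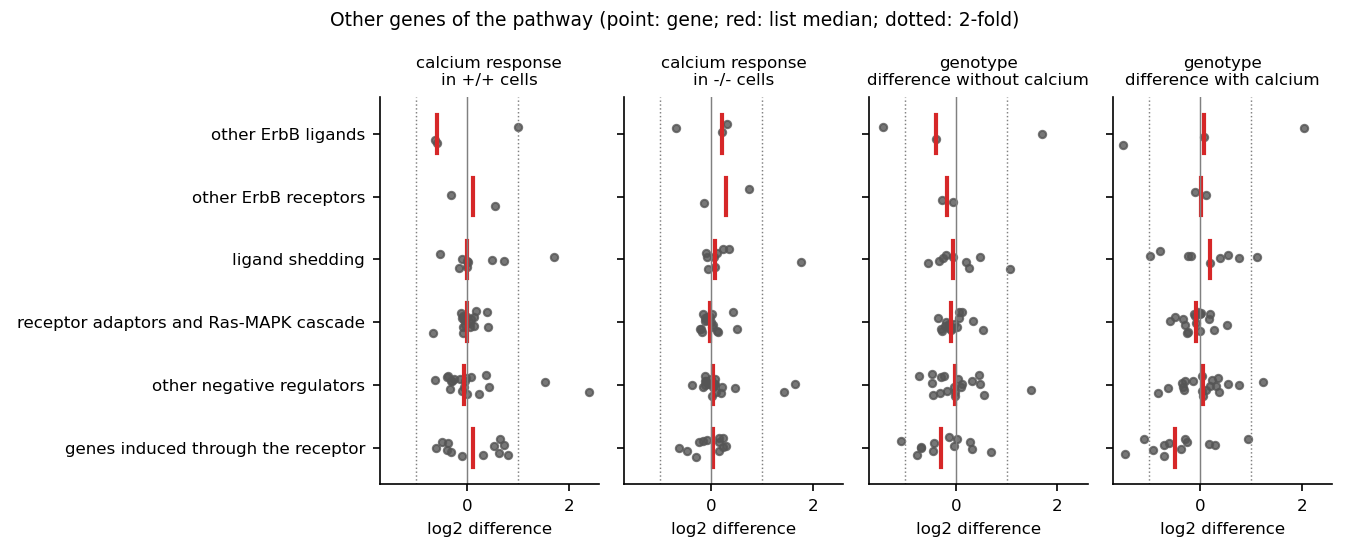
Each compared gene of the 6 pathway lists (grey point) in the calcium and genotype comparisons (log2 difference), with the list median in red and dotted lines at 2-fold. The 17 adaptor and cascade genes all lie inside the 2-fold lines, and the 12 genes induced through the receptor have medians of -0.28 and -0.50 log2 between genotypes, or 0.09 and 0.04 log2 when scaled to basal keratinocyte genes.

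Among the other ErbB ligands, the neuregulin gene Nrg1 had levels of 3.40, 2.81, 1.98 and 1.29 log2, lower on both -/- arrays. It differed between genotypes by -1.43 log2 without and -1.52 log2 with calcium, and by -1.05 and -0.98 log2 when scaled to basal keratinocyte genes. Nrg4 was read by probes that disagreed. The probe used for the genotype comparisons gave 1.69 and 2.05 log2 higher in -/- cells, another gave 0.26 and -0.07 log2, the second being 0.47 log2 when scaled to basal keratinocyte genes. The 2-fold count of Nrg4 with calcium in +/+ cells (1.01 log2) came from that other probe. With normexp correction the genotype values of the first were 0.92 and 1.16 log2 and the calcium value of the other was 0.45 log2, so that only the difference with calcium stayed past 2-fold. The receptor genes Erbb2 and Erbb3 stayed inside 2-fold in every comparison.

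In the list of 9 ligand-shedding genes, Timp3 alone passed 2-fold. It encodes an inhibitor of ADAM17 and other metalloproteinases. Its levels were 1.81, 3.52, 2.88 and 4.64 log2, higher with calcium by 1.71 and 1.76 log2 and higher in -/- cells by 1.08 and 1.12 log2. Of the 17 adaptor and Ras-MAPK cascade genes, 0 passed 2-fold in any comparison.

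Among the 19 other negative regulators, Dusp4 and Dusp5, which encode phosphatases of MAP kinases, were 2-fold higher with calcium in both genotypes. Dusp4 had levels of -2.93, -0.53, -2.46 and -0.82 log2, a calcium difference of 2.40 log2 in +/+ and 1.64 log2 in -/- cells. Dusp5 had levels of -3.54, -2.00, -4.26 and -2.82 log2 and differed by 1.54 and 1.43 log2. Spry4, a Sprouty inhibitor of the Ras pathway, was higher in -/- cells by 1.47 log2 without and 1.24 log2 with calcium, and by 0.96 and 0.91 log2 with normexp correction. Its levels were -4.42, -3.98, -2.95 and -2.74 log2.

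The 12 genes that EGF receptor signalling induces had medians of 0.12 and 0.03 log2 with calcium and of -0.28 and -0.50 log2 between genotypes, where the median gene was at -0.18 and -0.16 log2 and where scaling to basal keratinocyte genes gave 0.09 and 0.04 log2. Without calcium 8 of the 12 were below 0 and 4 above it, and with calcium 9 and 3. Egr1, an immediate early transcription factor gene named after its values were seen, was higher in -/- cells by 0.69 log2 without and 0.93 log2 with calcium, under 2-fold in both. Fosl1, which encodes an AP-1 subunit, had levels of -0.91, -0.27, -1.98 and -1.75 log2. It was lower in -/- cells by -1.08 log2 without and -1.47 log2 with calcium, or -0.70 and -0.93 log2 when scaled to basal keratinocyte genes. Fos, another AP-1 subunit gene, had levels of 1.36, 2.01, 0.67 and 0.91 log2 and genotype differences of -0.69 and -1.11 log2, the second being -0.57 log2 under that scaling.

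Cell type markers differed with genotype and calcium as well. All 6 basal keratinocyte markers, which define the labelled cell type, were well above background on each array, and their summed signal was 353, 335, 284 and 229 times the array's 75th percentile. All 6 were lower in -/- cells at both conditions, with medians of -0.29 and -0.55 log2, in the same direction as Egfr and Errfi1. Of all genes, 67.5% without and 63.1% with calcium were also below 0. The part of the basal markers in the values of Egfr and Errfi1 was not tested. The 9 suprabasal markers summed to 4.39, 37.3, 7.14 and 31.4, higher with calcium as were the ligands. Krt1, Dsg1a and Dsc1 were not well above background without calcium. Between genotypes with calcium, 2 of the 9 were above 0 and 7 below it, so the sums hide differences in both directions. Dsg1a and Dsc1 were higher in -/- cells by 3.33 and 1.47 log2, and Lor and Tgm1 were lower by -1.35 and -1.12 log2. The part of the suprabasal markers in the ligand values was not tested.

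The summed markers of 5 other cell types were higher in -/- cells. The summed signal of 6 fibroblast markers was 112, 97.7, 170 and 182, that of 8 macrophage and Langerhans cell markers 7.06, 6.27, 17.3 and 22.7, and that of 8 mast cell markers 1.50, 1.67, 11.3 and 11.3. Not every marker followed its sum. Of 6 fibroblast markers compared, 5 were higher in -/- cells without calcium, where Thy1 was lower by -0.12 log2. With calcium all 6 were higher. Of 7 macrophage and Langerhans cell markers compared, 6 were higher in -/- cells at both conditions. The other, Itgam, was lower by -0.17 log2 without and -0.89 log2 with calcium. The 7 adipocyte markers summed to 38.0, 25.5, 123 and 99.4, and the 4 skeletal muscle markers to 0.257, 0.437, 0.817 and 0.928. Of their defining markers Cd207, Ms4a2, Lep and Ckm were not well above background on any array, and Myh4 was not on 3 of the 4. Melanocyte markers summed to 31.0 to 44.3 across the arrays. Endothelial markers summed to 2.77, 3.04, 1.98 and 1.86, with Tek not well above background on either calcium array, and T cell markers to 1.81, 1.82, 1.37 and 1.30, with Cd3g and Cd8a not well above background on any array. The part of these markers in the genotype differences of Areg, Btc, Spry4, Nrg4 or Timp3 was not tested.

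**Figure D5:**
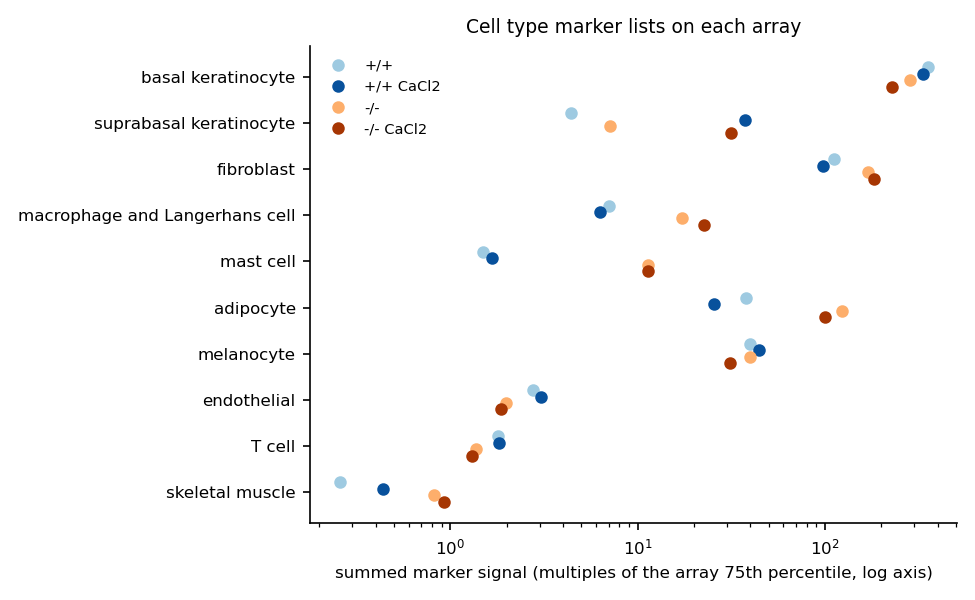
Summed signal of 10 cell type marker lists on each array, as multiples of the array's 75th percentile on a log axis, with 1 point per array and no error bars. Basal keratinocyte markers lie between 229 and 353, and suprabasal markers are high on both calcium arrays. The sums of fibroblast, macrophage, mast cell, adipocyte and skeletal muscle markers are higher on both -/- arrays.

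Genes with the pattern most like that of a member were sought for the 3 members that were 2-fold different in some comparison and measured on all 4 arrays. Likeness was the root mean square difference, over 4 arrays, between the centred log2 levels, among 2410 non-member genes that ranged over at least 1 log2. For Areg the nearest were Pinlyp (0.08 log2), Anxa9 (0.13 log2) and Sptlc3 (0.14 log2). For Ereg they were Rhof (0.06 log2), C2cd2 (0.07 log2) and Ocln (0.08 log2), and for Tgfa Cmtm8 (0.06 log2), Tnfaip8l1 (0.07 log2) and Pdlim2 (0.07 log2). Pinlyp was higher with calcium by 0.92 log2 in +/+ and 2.03 log2 in -/- cells, beside 0.72 and 1.96 log2 for Areg. Rhof was higher by 1.72 and 1.64 log2, beside 1.82 and 1.60 log2 for Ereg. With 4 arrays this likeness is a description of these samples.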

How the data were processed

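Total RNA (200 ng per array, per the labels) was labelled with Cy3 and hybridised to 1-colour Agilent arrays. The deposited scanner signals are an intensity made by the authors in Agilent Feature Extraction 11.5.1.1, per the submitters' processing notes and the file headers. The authors' value table is a ratio of each deposited signal to a constant per array (2638.22, 2738, 2890.93 and 3300.84), with a largest relative deviation of 2.31e-07. Its column medians are 0.0721, 0.0683, 0.0676 and 0.0709.

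Spots marked as outliers (105 to 116 per array) were dropped, and no spot was saturated. From the deposited intensities, log2 levels were computed relative to the 75th percentile of 43020 non-control spots. Repeat spots were averaged, and the brightest probe stood for a gene. Of 39429 probes 27508 were named by accession and 11921 by the file, 39426 had a usable spot on every array, and all 13 member probes were named alike. Comparisons needed a probe well above background on 1 or both arrays, and against a dim array the difference is a lower bound: the dim value is the higher of its own and the lowest signal well above background. The difference of calcium responses needed all 4 arrays well above background (19224 genes). The count threshold was 2-fold, with no test, since each group is 1 array. In 394 probes with 10 spots the median SD over spots was 0.07 log2.

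The members and lists were chosen with earlier results of these data known. All 10 members were named, with every list gene 2-fold different in any of the 4 comparisons and the 3 most alike genes of each member that was 2-fold different and measured on all arrays. Alternatives were normexp correction (offset 50), quantile scaling, scaling to the median probe or to 6 basal keratinocyte genes, averaging over probes, the authors' table, outlier spots kept, genes well above background on all arrays compared, and no filter. The code was tested on simulated data. Software was Python 3.11.15, numpy 2.4.6, pandas 2.3.3, matplotlib 3.10.9, R 4.3.3 and limma 3.58.1.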

Additional observations from a re-analysis of the deposited data

Results flagged for a closer look

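Egf had calcium differences of opposite sign in the 2 genotypes, -0.33 ± 0.28 log2 in +/+ and 0.16 ± 0.24 log2 in -/- cells (scanner error). The value of -/- cells was within that error, and was 0.05 log2 with normexp correction and 0.04 log2 with quantile scaling. The value of +/+ cells was -0.02 log2 when scaled to basal keratinocyte genes. The gap between these responses was 0.48 ± 0.37 log2, and the difference was not tested, since each group is 1 array. Its 9 or 10 spots per array read between 72.6 and 223 intensity units, where the lowest signal well above background was 31.1 to 40.4 units.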

How the results depend on the processing

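Of 439 member values recomputed under the alternatives, 388 stayed within the scanner error of the reported value and 51 moved further, 38 of them under scaling to basal keratinocyte genes and 9 under normexp correction. Of 49 reported member values 37 kept their sign throughout and 12 changed it in at least 1 setting, and 9 crossed 2-fold. The 37 include the genotype difference of Btc without calcium. With normexp correction its bound was 0 and its measured difference was -0.07 log2. The count of members at least 2-fold different with calcium in +/+ cells was 1 as reported, 2 with quantile scaling, 2 with scaling to the median probe, 2 with no filter and 4 with scaling to basal keratinocyte genes. In -/- cells it was 4 as reported and 2 with normexp correction. Between genotypes it was 0 without calcium under every alternative run. With calcium it was 1 as reported, 0 with normexp correction and 3 with scaling to basal keratinocyte genes. For the difference of the calcium responses it was 1 as reported and 0 with quantile scaling. Comparisons of Btc with +/+ cells without calcium gave no value where only genes well above background on both arrays were kept. No paired analysis was possible because each group has 1 array. Signals of Areg, Btc and Egf were low, which limits the precision of their values most, and a background offset lowers their differences by its construction.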

Other observations

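Within 500000 bases of the ligand cluster on chromosome 5, the adjoining gene Mthfd2l differed with calcium by 0.07 log2 in both genotypes, and Parm1, on the other side, by 0.18 log2 in +/+ and -0.23 log2 in -/- cells. The chemokine genes Cxcl5 and Cxcl1 in the same stretch were lower in -/- cells by -2.04 and -1.04 log2 without calcium and by -3.11 and -2.05 log2 with it. Pf4, which lies among them, was higher by 1.56 and 2.94 log2. The summed macrophage and Langerhans cell markers were also higher in -/- cells, and their part in the Pf4 values was not tested. These neighbours were chosen after their values were seen, and no test was run.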
